A study of Rattus norvegicus with 14 samples.

Results

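The genes described here encode the enzymes of glycolysis, of the fate of pyruvate and of the citric acid cycle, with the kinases and transaminases that attach to them. The members were a list of 41 symbols drawn up by pathway, with no threshold on measured values, and a probe belonged to a member where the platform annotation gave it that symbol. Of the 41 members 28 were measured, by 80 of the 4952 probes on the array: Gapdh had 53 probes and the other 27 members had 1 each. Hk3, Gpi, Pdhb, Cs, Aco1, Idh2, Idh3a, Idh3b, Ogdh, Dld, Suclg1, Fh and Mdh2 were not measured, so several steps of the citric acid cycle are missing, and the phosphofructokinase genes were not on the list.

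Total RNA of rat small intestine perfused with solutions labelled HG or HF was compared on 2-colour arrays that yield a ratio between both channels for every probe. HG is read here as high glucose and HF as high fructose, which the labels leave unexplained and which rests on what is known of the study. At 4 h, 5 pairs of HG and HF samples were set against each other on arrays 1 to 5, then 4 pairs perfused for 20 min on arrays 7 to 10, and on 3 self-self arrays 1 RNA of the 4 h set (1HG, 3HG or 3HF) filled both channels. Array 6 repeated pair 2 of the 4 h set, a further array was hybridised with labelling primers alone, and neither entered the tests. The labels give an age of 20 days for the rats of arrays 1 to 5. Strain, genotype and the number of animals behind each RNA were not found in the labels, and nothing says that the pairs came from separate animals, so the p-values measure only the spread between these arrays.

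A self-self array shows how far a probe departs from 0 when both channels hold the same RNA, and the tests therefore set the arrays at 4 h and at 20 min against the self-self arrays and against each other. Values are log ratios, read as log2, each array centred on its median. The 3 comparisons share arrays and are not independent of each other. No label states the base of the logarithm or which channel is the numerator. A positive value is read here as more RNA in the HF sample, which the labels do not settle. The title of array 6 alone carries a 5 after HG and a 3 after HF, which may stand for the dyes Cy5 and Cy3, and lists HG and HF in the same order as the other titles. Slc2a5 is the fructose transporter of the brush border, which luminal fructose is known to induce. It gave 1.33 to 1.95 on arrays 1 to 5 and -1.66 on array 6. At 20 min it gave -0.38, -0.01, -0.43 and -0.44, and on the self-self arrays 0.16, -0.10 and -0.17. It therefore gives no check of the direction at 20 min. The comparison of 4 h with 20 min assumes that the ratio runs the same way at both times. With the sign turned at both times, every direction below would turn as well. No array held RNA without HG and HF, so more RNA with HF and less RNA with HG cannot be told apart. Fewer cells of a type and less RNA per cell cannot be told apart either. Ratios hold no levels, so neither the tissue nor a cell type could be checked by the level of its markers.

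As background, glycolysis splits hexoses into pyruvate, and fructose enters it below its main control point through trioses. Pyruvate is then reduced to lactate by lactate dehydrogenase, or enters the mitochondrion, where pyruvate dehydrogenase turns it into acetyl-CoA and pyruvate carboxylase into oxaloacetate. Pyruvate dehydrogenase kinases switch pyruvate dehydrogenase off by phosphorylation. The absorptive cells of the small intestine are known to turn part of the glucose and fructose they take up into lactate and alanine and to draw much of their own energy from glutamine, with transaminases as links to the citric acid cycle.

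No member passed the test, limma's moderated test with Benjamini-Hochberg adjustment over all 4682 features at an adjusted p below 0.05. The count was 0 of 28 members in 4 h minus self-self, where 0.0641% of all features were called, 0 of 28 in 20 min minus self-self, where 0.0427% were called, and 0 of 28 in 4 h minus 20 min, where 0.598% were called. At an unadjusted p below 0.05, 7 of 28 members passed in 4 h minus self-self, against 9.97% of all features: Ldhb, Got1, Eno1, Aldoc, Idh3g and Pdk1 had positive differences (6 members, against 4.76% of all features higher) and Tpi1 a negative one (against 5.21% lower). In 20 min minus self-self 0 of 28 passed that level, against 5.21% of all features. In 4 h minus 20 min 8 of 28 passed it, against 13.5% of all features, with positive differences for the 7 genes Ldhb, Eno1, Pklr, Idh1, Mdh1, Got1 and Idh3g (6.3% of all features higher) and a negative one for Pgk1 (7.22% lower). Such counts at an unadjusted p are descriptions and no calls.

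Most members had positive differences at 4 h, on the side read as HF. The difference was above 0 for 19 of 28 members in 4 h minus self-self, against 48.5% of all features, and their median difference was 0.11. In 20 min minus self-self 14 of 28 lay above 0, against 50.6% of all features, with a median of -0.00062. In 4 h minus 20 min 19 of 28 lay above 0, against 48% of all features, with a median of 0.12. The median of the 28 log ratios lay between 0.13 and 0.21 on the 5 arrays at 4 h, between 0.02 and 0.11 on the 4 arrays at 20 min and between -0.0033 and 0.03 on the 3 self-self arrays, so the arrays at 4 h lay above those of both other groups, which overlapped. The median difference in 4 h minus self-self was 0.02 without the self-self array 3HG and 0.03 with the arrays scaled to 1 spread, and that in 4 h minus 20 min was 0.05 without the 20 min array of pair 2. With other scalings of the arrays 16 to 20 members lay above 0 in 4 h minus self-self and 19 to 20 in 4 h minus 20 min.

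**Figure D1:**
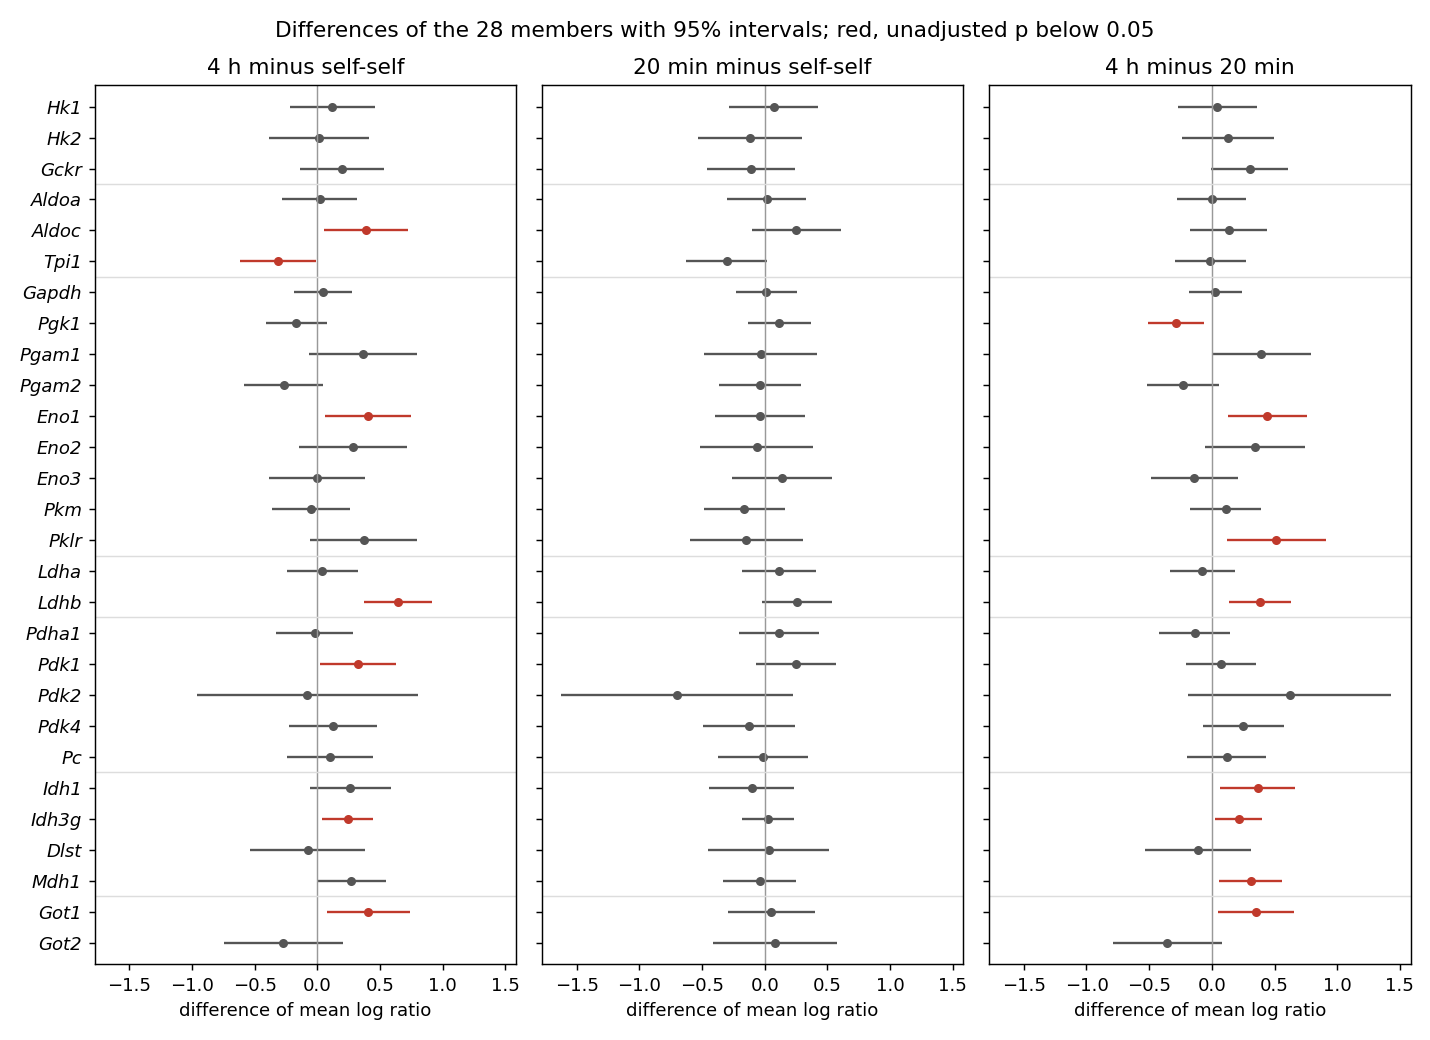
Difference of the mean log ratio of the 28 measured members (horizontal axis, read as log2) for 4 h less self-self (left), 20 min less self-self (middle) and 4 h less 20 min (right), with 95% intervals from limma and with grey lines between functional groups. Points in red had an unadjusted p below 0.05, which 7, 0 and 8 members did in the 3 panels, and no member passed after adjustment.

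Of the lactate dehydrogenase genes, Ldhb had the largest positive difference of all members in 4 h minus self-self, and Ldha one near 0. Ldhb encodes the subunit that prevails in heart and other oxidative tissues, and Ldha the subunit that prevails in skeletal muscle. Ldhb had log ratios of 0.41, 0.52, 0.43, 0.49 and 0.69 on arrays 1 to 5 at 4 h, -0.01, 0.18, 0.41 and -0.09 on the 20 min arrays, and -0.04, -0.09 and -0.27 on the self-self arrays. All 5 arrays at 4 h lay above all 3 self-self arrays, as for 3.31% of all features. The highest array at 20 min lay above the lowest at 4 h. The mean was 0.51 ± 0.11 at 4 h (SD, n = 5), 0.12 ± 0.22 at 20 min (SD, n = 4) and -0.14 ± 0.12 on the self-self arrays (SD, n = 3). The difference was 0.64 ± 0.12 (SE) in 4 h minus self-self, or 1.56-fold with base 2, with a limma adjusted p of 0.128, and 0.38 ± 0.11 in 4 h minus 20 min, with an adjusted p of 0.163. Ldha had log ratios of 0.11, -0.30, 0.07, 0.12 and 0.10 at 4 h, between -0.17 and 0.29 at 20 min and between -0.08 and 0.02 on the self-self arrays, with a difference of 0.04 in 4 h minus self-self and overlap of all 3 groups. The difference between the genes was not tested.

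Pdk2, a pyruvate dehydrogenase kinase found in most tissues, had no overlap between 4 h and 20 min, as did 6.54% of all features. Its log ratios were 0.80, 0.78, 0.43, 0.40 and 0.76 on the arrays at 4 h and 0.07, -0.01, 0.09 and -0.09 on the arrays at 20 min. Every array at 4 h lay above every array at 20 min, as for 3.42% of all features. On the self-self arrays the values were 2.20 for 1HG, -0.19 for 3HG and 0.13 for 3HF, so 1 self-self array lay far above all others. The difference in 4 h minus 20 min was 0.62 ± 0.37 (SE), or 1.54-fold with base 2, with a limma adjusted p of 0.523, and the self-self spread enters that error because all groups share 1 estimate. Without the self-self array 1HG the same difference was 0.62 ± 0.12, with an adjusted p of 0.0273, and with only the 4 h and 20 min arrays in the fit the adjusted p was 0.0344. In those fits 43 and 37 of all 4682 features were called. In 4 h minus self-self the difference was -0.08, and 0.66 without 1HG, with an adjusted p of 0.183. On 1HG 228 probes lay beyond 2 in absolute value, 149 of them among the first 750 probe numbers, where the Pdk2 probe stands at number 5. The arrays 3HG and 3HF held 20 and 1 such probes, and Pdk2 was the only member among the 228. What made these values extreme was not tested.

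The promoters shown are those of Ldhb, with the smallest p of the members in 4 h minus self-self, and of Pdk2, with the largest difference in 4 h minus 20 min. Ldhb at 4 h overlapped 20 min, Pdk2 at 4 h overlapped the self-self arrays, and 3 other members, Got1, Idh3g and Idh1, separated from 1 of these groups as well. Both are the 250 bases before the RefSeq transcription start in the assembly GRCr8, read in the direction of the gene: chr10:80483913-80484162 for Pdk2 and chr4:177177409-177177658 for Ldhb, both on the minus strand. The capitals mark CACGTG, the E-box bound by carbohydrate-response and other basic helix-loop-helix factors, found on either strand.
Pdk2: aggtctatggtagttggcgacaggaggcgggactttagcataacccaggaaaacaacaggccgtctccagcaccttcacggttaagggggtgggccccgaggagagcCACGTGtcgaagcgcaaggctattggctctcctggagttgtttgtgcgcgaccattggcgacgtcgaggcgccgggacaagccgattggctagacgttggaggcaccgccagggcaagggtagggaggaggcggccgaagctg
Ldhb: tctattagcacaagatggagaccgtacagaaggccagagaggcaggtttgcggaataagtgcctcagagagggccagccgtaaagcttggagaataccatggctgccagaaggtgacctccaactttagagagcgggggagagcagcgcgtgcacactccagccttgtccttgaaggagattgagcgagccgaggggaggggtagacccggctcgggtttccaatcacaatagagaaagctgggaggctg
CACGTG stood in the promoters of 2 of the 26 members with a promoter listed, Pdk2 and Ldha, or 7.69%. It stood in 5.79% of 27457 promoters, the first listed for each gene symbol, and other starts of a gene were not searched. The shorter ACGTG is the core of the hypoxia response element, and every CACGTG contains it on both strands. It stood in 7 of 26, or 26.9%, against 16.9% of the 27457 promoters. Neither motif was found in the Ldhb window. A match is only a run of letters, and its absence says nothing of a factor.

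**Figure D2:**
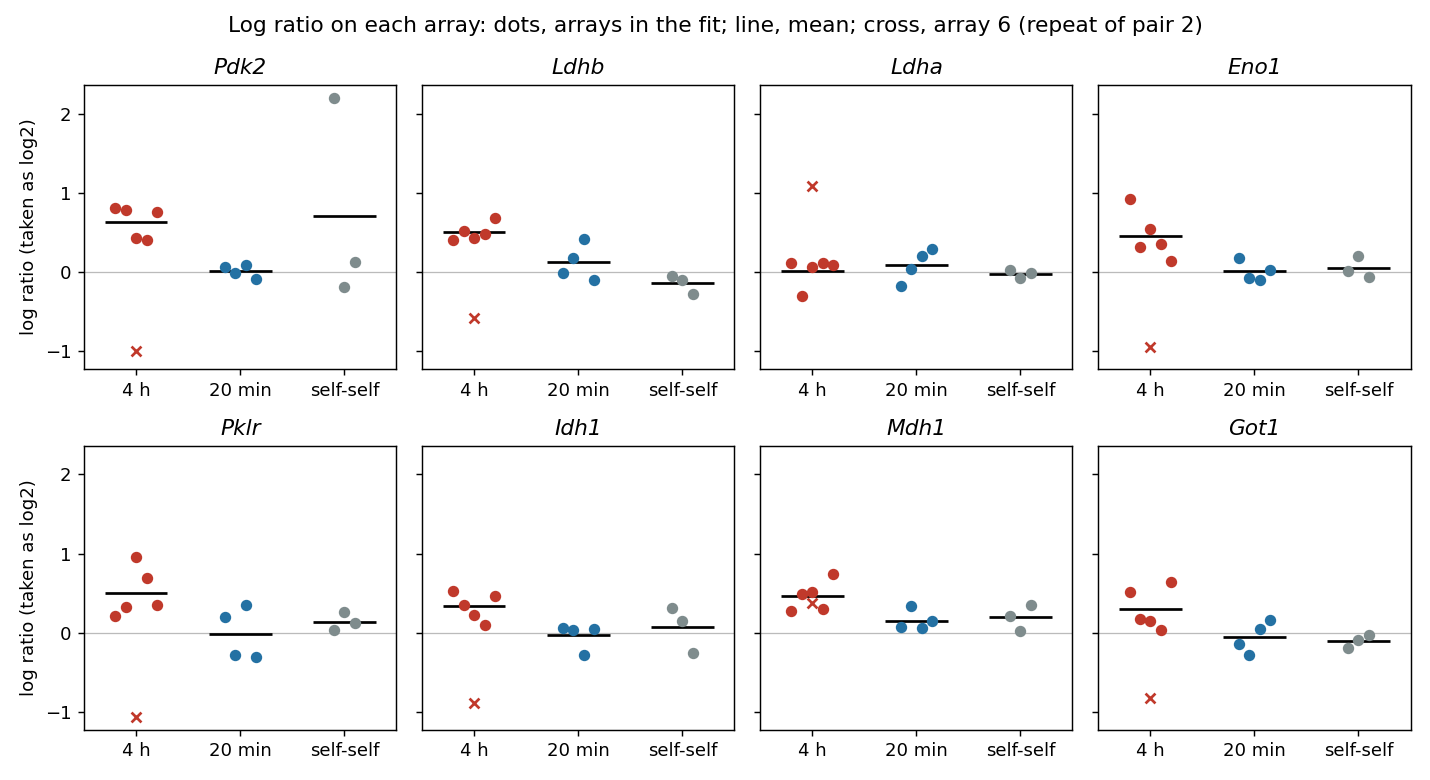
Log ratio on every array (vertical axis, read as log2) of Pdk2, Ldhb, Ldha, Eno1, Pklr, Idh1, Mdh1 and Got1 at 4 h (red, 5 arrays), at 20 min (blue, 4 arrays) and on the self-self arrays (grey, 3 arrays), with group means as lines and array 6 as a cross. Pdk2 on the self-self array 1HG stands at 2.20, and array 6 lies below 0 for all but Ldha and Mdh1.

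In lower glycolysis 9 of 9 listed members were measured, and Eno1 and Pklr had the highest differences. Eno1 encodes the enolase of most tissues. Its log ratios were 0.92, 0.31, 0.55, 0.35 and 0.13 at 4 h, 0.18, -0.07, -0.09 and 0.03 at 20 min, and 0.01, 0.20 and -0.07 on the self-self arrays. On 4 of 5 arrays at 4 h it lay above all arrays of the other groups, and on the fifth within them. The difference was 0.40 ± 0.16 (SE) in 4 h minus self-self, with a limma adjusted p of 0.438, and 0.44 ± 0.15 in 4 h minus 20 min, with an adjusted p of 0.206.

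Pklr, the pyruvate kinase of liver, intestine and red cells and a known target of the carbohydrate-response factor, had log ratios of 0.21, 0.32, 0.95, 0.69 and 0.35 at 4 h, 0.21, -0.28, 0.35 and -0.31 at 20 min, and 0.03, 0.26 and 0.12 on the self-self arrays. The highest array at 20 min read 0.35, as did 1 array at 4 h, and lay above 2 of the 5 arrays at 4 h. The difference was 0.37 in 4 h minus self-self and 0.51 ± 0.18 (SE) in 4 h minus 20 min, with limma adjusted p of 0.492 and 0.229. Pkm, the pyruvate kinase of most other tissues, had log ratios of 0.61, 0.93, 0.74, 0.45 and 0.87 at 4 h, 0.96, 0.56, 0.49 and 0.44 at 20 min, and 0.84, 0.79 and 0.69 on the self-self arrays, so that its positive ratio was present without any difference of RNA. Its difference was -0.05 in 4 h minus self-self and -0.16 in 20 min minus self-self.

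Pgk1, phosphoglycerate kinase and the first step of glycolysis to yield ATP, ran the other way. Its log ratios were -0.02, -0.35, -0.20, -0.23 and 0.06 at 4 h, 0.14, 0.13, 0.02 and 0.26 at 20 min, and 0.09, -0.11 and 0.09 on the self-self arrays. On 4 of 5 arrays at 4 h it lay below all arrays at 20 min, and on the fifth, at 0.06, above 1 of them. The difference was -0.29 ± 0.10 (SE) in 4 h minus 20 min, with a limma adjusted p of 0.236, and -0.17 in 4 h minus self-self.

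Of the aldolase and triose step, Aldoc and Tpi1 passed the unadjusted level against the self-self arrays. Aldoc, the aldolase of brain, had log ratios of -0.12, -0.40, -0.07, -0.17 and -0.41 at 4 h, -0.37, -0.71, -0.13 and -0.26 at 20 min, and -0.33, -0.77 and -0.77 on the self-self arrays. All 12 values were negative, the self-self ones most of all on average. The difference was 0.39 in 4 h minus self-self and 0.25 in 20 min minus self-self. Tpi1, triosephosphate isomerase, had log ratios of -0.28, 0.14, -0.11, -0.17 and 0.04 at 4 h, -0.08, -0.10, 0.08 and -0.16 at 20 min, and -0.04, 0.20 and 0.56 on the self-self arrays. All 3 groups overlapped, and 1 self-self array was the highest. Its difference was -0.32 at 4 h and -0.30 at 20 min, each relative to the self-self arrays, and -0.01 between 4 h and 20 min. Without the self-self array 3HF these were -0.15 at 4 h and -0.14 at 20 min, and without 1HG -0.46 and -0.44.

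Of the citric acid cycle list 4 of 14 members were measured. Of these 4, Idh1, Mdh1 and Idh3g passed the unadjusted level in 4 h minus 20 min with positive differences, against 6.3% of all features. The fourth, Dlst, had a difference of -0.11. Idh1 and Mdh1 encode cytosolic enzymes, so the count does not describe the cycle of the mitochondrion. Idh1 is the cytosolic NADP-linked isocitrate dehydrogenase. Its log ratios were 0.52, 0.35, 0.22, 0.10 and 0.47 at 4 h, 0.06, 0.04, -0.28 and 0.05 at 20 min, and 0.32, 0.15 and -0.26 on the self-self arrays. Every array at 4 h lay above every array at 20 min, while the self-self arrays spanned both. The difference in 4 h minus 20 min was 0.37 ± 0.14 (SE), with a limma adjusted p of 0.262. Idh1 and Pdk2 were the 2 of 28 members whose arrays at 4 h and at 20 min did not overlap, against 6.54% of all features. Both were higher at 4 h, as were 3.42% of all features.

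Mdh1, the cytosolic malate dehydrogenase, had log ratios of 0.27, 0.49, 0.52, 0.31 and 0.74 at 4 h, 0.07, 0.34, 0.06 and 0.15 at 20 min, and 0.22, 0.02 and 0.35 on the self-self arrays. It was positive on all 12 arrays, and its 4 h values overlapped those of both other groups. The difference was 0.31 ± 0.12 (SE) in 4 h minus 20 min, with a limma adjusted p of 0.265. Got1, the cytosolic aspartate transaminase that works with Mdh1 in the malate-aspartate shuttle, had log ratios of 0.51, 0.17, 0.15, 0.04 and 0.65 at 4 h, -0.14, -0.27, 0.06 and 0.16 at 20 min, and -0.19, -0.10 and -0.02 on the self-self arrays. All arrays at 4 h lay above all self-self arrays, as for 3.31% of all features. The difference was 0.41 ± 0.15 (SE) in 4 h minus self-self and 0.35 ± 0.14 in 4 h minus 20 min, with limma adjusted p of 0.409 and 0.289. Got2, its mitochondrial partner, spanned -0.75 to 0.17 at 4 h and had the lowest difference of all members in 4 h minus 20 min, -0.35, with a difference of opposite sign to Got1. The difference between these genes was not tested.

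Idh3g, a subunit of the mitochondrial NAD-linked isocitrate dehydrogenase, had log ratios of 0.34, 0.23, 0.19, 0.14 and 0.03 at 4 h, -0.13, 0.07, -0.07 and 0.02 at 20 min, and -0.06, -0.06 and -0.04 on the self-self arrays. All arrays at 4 h lay above all self-self arrays, and 1 array at 20 min lay above the lowest at 4 h. The difference was 0.24 in 4 h minus self-self, with a limma adjusted p of 0.431, and 0.21 in 4 h minus 20 min, with an adjusted p of 0.289. Ldhb, Got1 and Idh3g were the 3 of 28 members whose arrays at 4 h lay clear of the self-self arrays, against 6.71% of all features, and all 3 were higher, against 3.31%. At 20 min 0 of 28 members lay clear of the self-self arrays, against 7.01% of all features.

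Of the pyruvate dehydrogenase kinases other than Pdk2, Pdk1 had log ratios of 0.17, 0.17, 0.06, -0.02 and 0.25 at 4 h, 0.01, 0.05, 0.12 and 0.05 at 20 min, and -0.62, 0.07 and -0.05 on the self-self arrays. The self-self array 1HG lay below all others, and without it the difference in 4 h minus self-self was 0.11 in place of 0.32. Pdk4, the kinase induced by fasting in many tissues, had positive ratios on all 12 arrays and differences of 0.13 in 4 h minus self-self, which fell below 0 with arrays scaled to 1 spread or quantile normalized, and -0.13 in 20 min minus self-self. The remaining members, 15 in number, had differences between -0.27 (Got2) and 0.36 (Pgam1) in 4 h minus self-self, between -0.13 (Pdk4) and 0.14 (Eno3) in 20 min minus self-self, and between -0.35 (Got2) and 0.39 (Pgam1) in 4 h minus 20 min. The hexose phosphorylation genes Hk1, Hk2 and Gckr all had positive differences in 4 h minus 20 min, of 0.05, 0.13 and 0.30, that of Hk1 falling below 0 with arrays scaled to 1 spread.

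Some members had a ratio of 1 sign on every array, those with the same RNA in both channels included. Hk1, Pkm, Pdha1, Pdk4 and Mdh1 were positive and Aldoc was negative on all 12 arrays, as 7.9% of all features were of 1 sign. Set against 0 with no use of the self-self arrays, 13 of 28 members were called at 4 h (17.5% of all features) and 7 at 20 min (9.44% of all features), and 5 at both times: Hk1, Pkm, Pdha1, Pdk4 and Dlst. The share of all features called at both times was not counted. For these 5 genes the differences from the self-self arrays lay between -0.16 (Pkm at 20 min) and 0.13 (Pdk4 at 4 h). Ldhb and Eno1 were among those called against 0 at 4 h and read -0.14 and 0.05 on average on the self-self arrays.

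**Figure D3:**
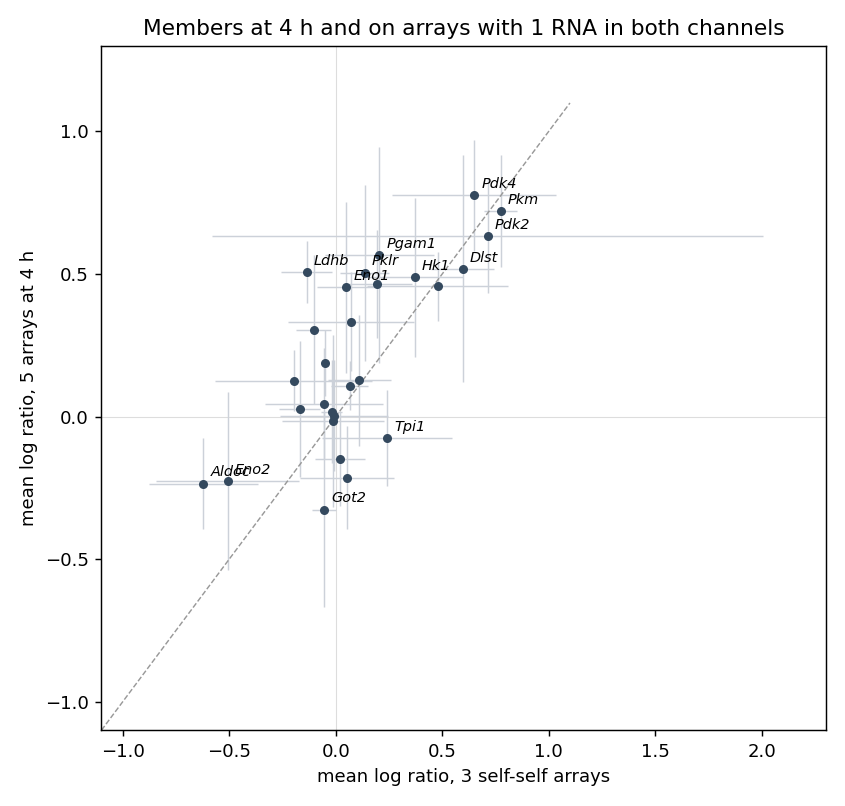
Mean log ratio of the 28 members on the 5 arrays at 4 h (vertical axis) against the mean on the 3 self-self arrays (horizontal axis), both read as log2, with SD as error bars and equal values as the dashed line. Pkm, Pdk4, Hk1 and Dlst lie near the line with positive values on both axes, while Ldhb, Eno1 and Pklr lie above it.

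Array 6 gave a further reading of pair 2 at 4 h and was kept apart from the tests. Relative to the median of the self-self arrays, its sign was opposite to that of the 4 h mean for 17 of 28 members, or 60.7%, against 46.6% of all features. Among the 8 members at an unadjusted p below 0.05 in 4 h minus 20 min it was opposite for 7, all but Mdh1, against 63.7% of the features at that level. Among the 7 at that level in 4 h minus self-self it was opposite for 5, all but Tpi1 and Pdk1, or 71.4%, against 50.5% of the features. Pdk2 read -0.99, Pklr -1.06, Eno1 -0.94, Idh1 -0.88, Got1 -0.83, Idh3g -0.64 and Ldhb -0.58 on array 6, and Pgk1 0.56. Pkm, Hk1, Pdha1, Pdk4 and Dlst stayed positive on it, at 0.92 to 2.15. Array 6 used the RNA of array 2 and is no separate replicate, and the spread over all its probes was 0.82 as an SD, against 0.36 to 0.40 on arrays 1 to 5.

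Gapdh, a dehydrogenase listed here under lower glycolysis and a common reference gene, was read by 53 probes and showed how far its probes differ. Averaged over its probes it had log ratios of 0.12, -0.01, 0.23, 0.07 and 0.13 at 4 h, 0.32, -0.02, 0.08 and -0.06 at 20 min, and 0.16, 0.03 and 0.00061 on the self-self arrays. The groups overlapped throughout. Over the probes the difference in 4 h minus self-self averaged 0.04, with an SD of 0.14 and a range of -0.32 to 0.32, and that in 4 h minus 20 min averaged 0.03, with a range of -0.44 to 0.45. The difference also moved with the probe number: its median in 4 h minus self-self was 0.11 over 25 probes numbered 3712 to 4000, 0.02 over 13 probes numbered 4336 to 4480 and -0.12 over 13 probes numbered 4494 to 4638. Whether a member with 1 probe carries a similar spread cannot be seen.

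**Figure D4:**
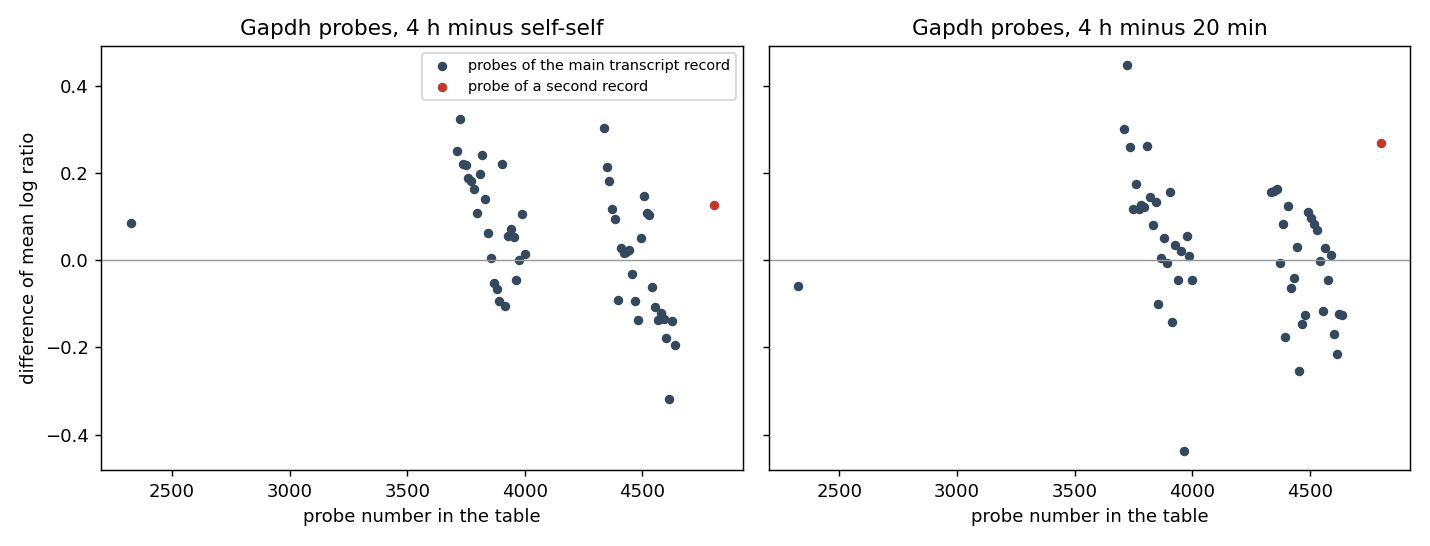
Difference of the mean log ratio (vertical axis, read as log2) of each of the 53 Gapdh probes against the probe's number in the table (horizontal axis), for 4 h minus self-self on the left and 4 h minus 20 min on the right. The points span -0.32 to 0.32 on the left and -0.44 to 0.45 on the right, and on the left the probes numbered 3712 to 4000 lie mostly above 0 and those numbered 4494 to 4638 mostly below.

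Genes next to the pathway gave 0 calls as well. Of other glycolysis genes 3 of 13 were measured, of other pyruvate and citric acid cycle genes 7 of 19, of carriers of lactate, pyruvate and dicarboxylates 7 of 9, and of the pentose phosphate pathway only Tkt of 7. Gapdhs and Ldhc, Pdp1 and Pdp2, and Tkt, the genes with the smallest p in 4 h minus self-self on their lists, lay between -0.07 and 0.23 there. The carriers gave the lowest median, -0.20 in 4 h minus self-self and -0.24 in 4 h minus 20 min. Bsg encodes basigin, the chaperone that brings monocarboxylate transporters to the membrane. Its log ratios were -0.58, -0.34, -0.35, -0.37 and -0.24 at 4 h and -0.05, -0.12, -0.08 and -0.10 at 20 min. Slc16a8, a lactate transporter known from retinal pigment epithelium, had log ratios of -0.19, -0.30, -0.36, 0.16 and -0.34 at 4 h and 0.17, 0.43, 0.76 and 0.26 at 20 min. For both genes all arrays at 4 h lay below all arrays at 20 min, and 6.54% of all features had no overlap there in either direction. The self-self arrays read -0.04, 0.07 and -0.25 for Bsg and 0.03, 0.03 and 0.23 for Slc16a8. They overlapped the arrays at 4 h for both genes. The differences in 4 h minus 20 min were -0.29 for Bsg and -0.61 for Slc16a8, with limma adjusted p of 0.203 and 0.0935.

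Markers of cell types were set beside these values. Of 10 enterocyte markers 9 were measured and 0 were called. In 4 h minus 20 min 6 of the 9 lay below 0, while 48% of all features lay above it. At an unadjusted p below 0.05, 4 of the 9 were lower, against 7.22% of all features. The median was -0.36, opposite in sign to that of the members. In 4 h minus self-self 5 of the 9 lay below 0 and 4 above, with a median of -0.14. At the unadjusted level 3 were lower there, against 5.21% of all features. The median log ratio of the 9 markers lay between -0.38 and -0.14 on the arrays at 4 h, between -0.08 and 0.01 at 20 min and between -0.09 and 0.05 on the self-self arrays. The median differences in 4 h minus 20 min were -0.11 for 5 smooth muscle markers, 0.12 for 5 leukocyte markers, 0.08 for 7 pancreatic markers, 0.02 for 8 markers of enteric neurons and glia and 0.30 for 2 erythrocyte markers, with 0 called. The part of cell composition in the values of the members was not tested.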

How the data were processed

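Log2 ratios are the unit read into the table that the authors deposited, with 4952 probes, 14 arrays and 0 missing values. The labels name no base of the logarithm, direction, background correction, normalization or scanner, and the deposited array medians lay between -0.07 and 0.02. Signal intensities were not analysed here, dim probes were therefore kept, and the number of arrays limits the precision.

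Each array was centred on its median. Probe names came from the platform annotation: 4426 probes had 1 symbol, 2 had several and 524 had none. Probes of 1 symbol were averaged, which gave 4682 features, 4156 with a symbol, and all 28 members measured matched RefSeq genes by Entrez identifier. limma 3.58.1 in R 4.3.3 was fitted once to 12 arrays (5 at 4 h, 4 at 20 min, 3 self-self; 9 residual and 2.84 prior degrees of freedom), with Benjamini-Hochberg adjustment over all features in each of 3 comparisons. Array 6 and the primer array were left out of the fit. The code of the fit was checked on simulated normal noise with the same spread in every group. That check does not cover the wider spread of the self-self array 1HG, whose SD over all probes was 1.39.

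Members named with all values are, in any comparison, the 6 with the smallest p. Gapdh, for its many probes, and Ldha, as the partner of Ldhb, were added after their values were seen. On other pathway lists the genes named are the 2 with the smallest p in 4 h minus self-self. The members and lists were chosen with earlier results of these data known. Replicate numbers did not pair the arrays at 4 h and 20 min (correlations of same-numbered deviations between -0.07 and 0.16). Alternatives changed the centring, scaling, array weights, the groups in the fit, the use of self-self arrays and of array 6, added the replicate number as a block and left out each array in turn. Promoter sequences are from RefSeq, assembly GRCr8.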

Additional observations from a re-analysis of the deposited data

Results flagged for a closer look

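Single arrays far from the rest of their group were found for 4 of the 56 groups of member values examined by Dixon's test, and chance gives about 1 in 20. Ldha read -0.30 on array 2 at 4 h, where the other 4 arrays read 0.07 to 0.12. Pdha1, a subunit of pyruvate dehydrogenase, read 0.24 on array 3 at 4 h, where the others read 0.49 to 0.54. Pdk4 read 0.43 on array 5 at 4 h, where the others read 0.80 to 0.89. Idh1 read -0.28 on the 20 min array of pair 3, where the others read 0.04 to 0.06, and without that array its difference in 4 h minus 20 min was 0.28.

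Idh1 lay above the self-self mean of 0.07 on every array at 4 h and below it on every array at 20 min. The self-self arrays, at 0.32, 0.15 and -0.26, spanned both groups. Against their median of 0.15, array 4 at 4 h read lower, at 0.10. How many of all features share the pattern was not counted. The difference in 4 h minus 20 min was 0.37, with a limma adjusted p of 0.262.

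On arrays outside the fit, 21 of 28 members on array 6 (75%, against 71.1% of all features) and 12 of 28 on the primer array (42.9%, against 50.9%) lay outside the range of the self-self arrays. The labels of the primer array name primers in both channels, and what its values stand for was not tested.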

How the results depend on the processing

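Of 23 differences of single members examined, 18 kept their sign under every alternative run for them (24 in the comparisons with self-self, 23 in 4 h minus 20 min) and 5 did not. The 23 were picked for their small p in these same data, with Pdk2 added, so a kept sign was likely beforehand and is no support. Of all members, 3 changed sign in 4 h minus self-self with arrays scaled to 1 spread: Hk1, Aldoa and Pdk4. With quantile normalization 4 did, Aldoa, Eno3, Pdk2 and Pdk4, and with no centring 1 did, Eno3. Pdk2 in 4 h minus self-self turned to 0.47 with quantile normalization, 0.35 with array weights and 0.63 against 0. It spanned -0.53 to 0.66 with single arrays left out. With array 6 mirrored at the self-self mean of each feature and averaged with array 2, it turned to 0.0848. For Pdk2 that self-self mean was 0.71, and the 1HG value of 2.20 enters it. Pdk2 in 20 min minus self-self turned to 0.0142 against 0 and spanned -1.15 to 0.0428 with single arrays left out. Against 0, Aldoc turned to -0.24 at 4 h and -0.37 at 20 min, and Pkm to 0.61 at 20 min. That alternative uses no self-self array and gave 820 features, 13 members and 17 members at an unadjusted p below 0.05 with a median of 0.16 at 4 h, and 442, 7 and 8 at 20 min. Apart from it, 1 member passed in any alternative, Pdk2 in 4 h minus 20 min, with only the compared groups in the fit (37 of 4682 features called) or without 1HG (43 of 4682). The limma adjusted p of Ldhb in 4 h minus self-self lay between 0.101 and 0.583 over the other alternatives.

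With arrays scaled to 1 spread, the median of the members in 4 h minus self-self was 0.0269 and 16 features were called in 4 h minus 20 min. In 20 min minus self-self 0 features were called with that scaling, with only the compared groups or with the replicate block. The same held with array 6 as deposited or mirrored. There 1, 1 and 2 members passed at an unadjusted p below 0.05 with scaling, quantile normalization and array weights. With array 6 averaged as deposited, 0 features were called in 4 h minus self-self and 0 in 4 h minus 20 min, 3 and 2 members passed at an unadjusted p below 0.05, and the 4 h median was 0.14. The replicate block gave 4 members at an unadjusted p below 0.05 and a median of 0.15 in 4 h minus self-self, and 12 features called in 4 h minus 20 min. The replicate numbers did not pair the arrays.

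With single arrays left out, features called spanned 2 to 5 in 4 h minus self-self, 0 to 4 in 20 min minus self-self and 4 to 43 in 4 h minus 20 min, the last number without 1HG. Members at an unadjusted p below 0.05 spanned 4 (without 3HG) to 7 in 4 h minus self-self and 0 to 2 in 20 min minus self-self, and members called 0 to 1 in 4 h minus 20 min. In 20 min minus self-self Aldoc spanned 0.17 to 0.40 and Pkm -0.28 to -0.10. Medians of the members spanned 0.0193 to 0.139 in 4 h minus self-self and 0.0525 to 0.176 in 4 h minus 20 min. The cause of these changes was not tested. Most members rest on 1 probe, and every comparison with the self-self arrays rests on 3 of them, so 1 array can decide a value.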
